A study of Sus scrofa with 6 samples.

Results

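The solute carriers (SLC) are membrane proteins that move amino acids, sugars, bile acids, ions, nucleosides, vitamins and metabolites across the cell surface and the membranes of organelles. Their messenger RNA was described in liver, muscle and fat of Korean native pigs and of Berkshire pigs. Members were all pig gene IDs whose symbol is SLC followed by a family number, or begins with SLCO, the organic anion polypeptide branch. By this rule 293 of the 25322 gene IDs were members, in 50 families, and 8 of them were SLCO genes. A symbol was known for 11804 IDs, so carriers that lack one are not counted. The rule also took in SLC4A1AP, which encodes an adaptor protein and no carrier.

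RNA sequencing gave 6 libraries, 1 each of Korean native liver, Berkshire liver, Korean native muscle, Berkshire muscle, Korean native fat and Berkshire fat. No treatment, age or sex is given in the labels, and the number of animals behind a library is not stated. Levels are counts per 1000000 reads on genes after scaling between libraries by the trimmed mean of M values (TMM), written CPM. They are not divided by gene length, so levels are compared between libraries for 1 gene and not between genes.

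Exchangers and sodium- or proton-coupled carriers set the uptake of amino acids, the liver takes up bile acids and drugs through the SLC10, SLC22 and SLCO families, and glucose crosses through SLC2 proteins. Inside the cell the SLC25 carriers link the mitochondrial matrix to the cytosol, and the SLC35 carriers bring nucleotide sugars into the Golgi apparatus and endoplasmic reticulum. Some members are also known as enzymes or partners, such as the acyl-CoA synthetases of SLC27 and the heavy chain SLC3A2.

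Carriers passed the test in both directions between every pair of tissues. Of the 293 members, 22 had 0 counts in every library, 77 had counts but too few to be tested (at most 10.3 CPM), and 194 were tested. Between liver and muscle, 102 of the 194 tested members passed the test (edgeR quasi-likelihood test, adjusted p under 0.05), 63 higher and 39 lower in liver. The same test called 35.9% of all 13810 genes, 18.6% higher and 17.4% lower. Between liver and fat, 80 members passed, 49 higher and 31 lower in liver, where all genes gave 28.7%, 15.2% higher and 13.5% lower. Between muscle and fat, 41 members passed, 22 higher and 19 lower in muscle, where all genes gave 16.4%, 9.95% higher and 6.43% lower. In bulk tissue, fewer cells of a type and less RNA per cell cannot be told apart, here and for every result that follows.

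The median log2 difference of the tested members was 0.41 for liver minus muscle, against -0.01 over all genes. It was 0.17 for liver minus fat, against 0.06, and -0.33 for muscle minus fat, against -0.05. With members at 0 in a whole tissue put at their bound, these medians were 0.39, 0.17 and -0.24. The muscle minus fat count was 20 when the Korean native muscle library was left out, 22 when the fat library of the same breed was, and 27 when Berkshire fat was. With scaling by total counts the median log2 difference over all genes was -0.94 for liver minus fat and -0.98 for muscle minus fat, against 0.06 and -0.05 with TMM. The members called then numbered 117 for liver minus fat, 35 higher and 82 lower, and 100 for muscle minus fat, 16 higher and 84 lower. They numbered 102 for liver minus muscle, 61 higher and 41 lower, so the order of the tissue pairs by count turned with the scaling.

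The tissue labels held against marker genes. Summed hepatocyte markers (12 genes) were between 230748 and 265852 CPM in the liver libraries and at most 71.9 CPM elsewhere. Summed myofibre markers (8 genes) were between 101829 and 159554 CPM in muscle and at most 61.9 CPM elsewhere. Summed adipocyte markers, 5 genes, were between 3515 and 4578 CPM in fat, between 768 and 1457 CPM in muscle and between 76.4 and 103 CPM in liver. The libraries held 5897407 to 7912093 counts on genes, and members took 0.396% to 0.876% of them.

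A member counted as enriched in a tissue where each contrast with the other tissues passed and its log2 difference was at least 2 in favour of that tissue. Liver had 33 such members, muscle 12 and fat 5. Over all genes tested, 8.11% were enriched in liver, 4.53% in muscle and 1.56% in fat. The fat count was 9 when Berkshire muscle was left out, and 2 when either the fat or the muscle library of Korean native pigs was. The muscle count was 8 with Korean native muscle left out.

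**Figure D1:**
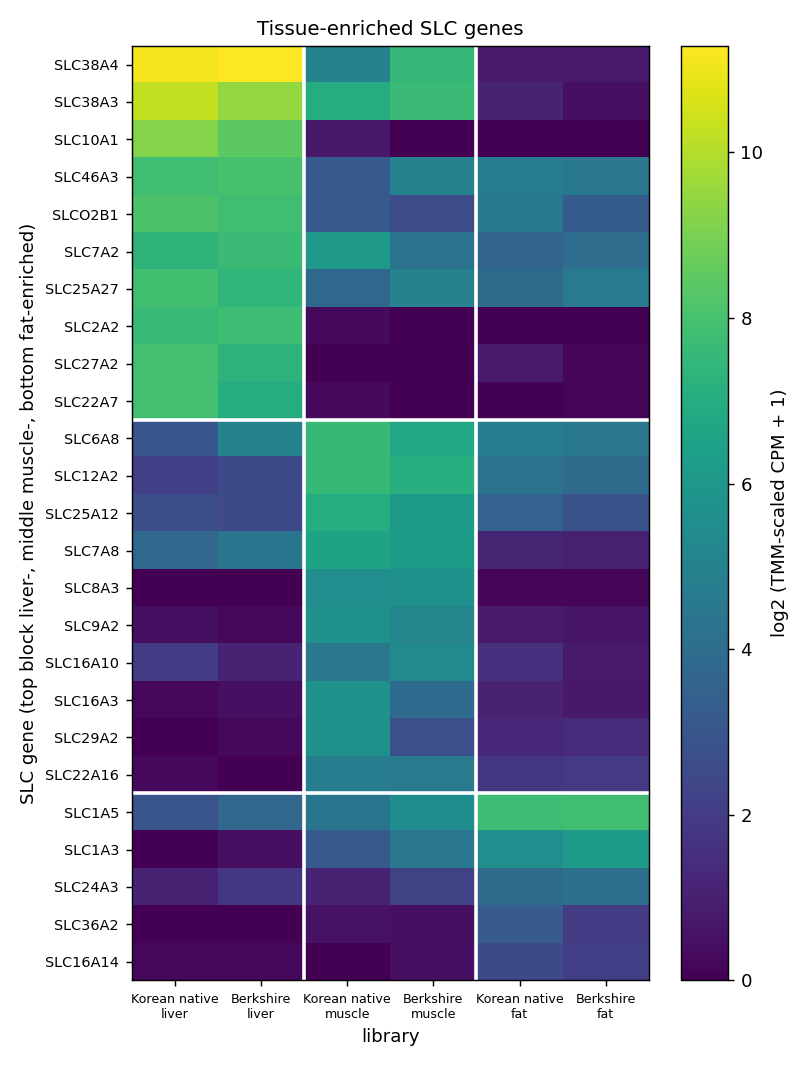
Levels of tissue-enriched SLC genes in the 6 libraries, as log2 of TMM-scaled CPM plus 1, with 1 row per gene and 1 column per library. The 10 liver-enriched genes shown are highest in the liver columns, the 10 muscle-enriched genes in the muscle columns and the 5 fat-enriched genes in the fat columns, and SLC38A3 and SLC38A4 also reach 31.3 to 206 CPM in muscle.

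Amino acid carriers passed in both directions, and each tissue had at least 1 enriched member. Of 35 members 26 were tested, and 8 were higher and 6 lower in liver than in muscle, 9 higher and 6 lower in liver than in fat, and 3 higher and 4 lower in muscle than in fat. All genes gave 18.6% higher and 17.4% lower, 15.2% and 13.5%, and 9.95% and 6.43%, in the same order. With total counts the liver minus fat split of the members turned to 8 higher and 10 lower. The liver minus muscle split was 6 and 3 without Korean native liver, and the muscle minus fat split 3 and 1 when Korean native muscle or fat was left out. SLC38A4, a sodium-coupled carrier of neutral amino acids, had 2231 and 2497 CPM in Korean native and Berkshire liver, 31.3 and 184 CPM in Korean native and Berkshire muscle, and 0.787 and 0.782 CPM in Korean native and Berkshire fat. Both liver libraries were above both muscle libraries, which were above both fat libraries. The log2 difference was 4.83 ± 0.72 (SE) for liver minus muscle (edgeR adjusted p 0.00239) and 6.76 ± 0.83 for muscle minus fat (adjusted p 0.00282).

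SLC38A3, which carries glutamine, histidine and asparagine with sodium, had 1221 and 709 CPM in Korean native and Berkshire liver, 126 and 206 CPM in Korean native and Berkshire muscle, and 1.08 and 0.391 CPM in Korean native and Berkshire fat. It showed the same order of tissues with no overlap. Its log2 difference was 2.47 ± 0.51 for liver minus muscle (edgeR adjusted p 0.00953) and 7.85 ± 0.68 for muscle minus fat (adjusted p 0.000627). SLC7A2, a cationic amino acid carrier, had 160 and 209 CPM in Korean native and Berkshire liver, 68.4 and 18.6 CPM in Korean native and Berkshire muscle, and 11.8 and 15.1 CPM in Korean native and Berkshire fat. Its liver minus muscle log2 difference of 2.20 ± 0.59 (adjusted p 0.0261) lost its call without Berkshire liver, at 1.67, and was 1.23 without Berkshire muscle and 3.47 without Korean native muscle. SLC1A1, a glutamate carrier, had 92.9 and 37.9 CPM in Korean native and Berkshire liver and between 0.391 and 0.921 CPM in the other 4 libraries. Its log2 difference was 6.38 ± 0.43 for liver minus muscle and 6.83 ± 0.42 for liver minus fat (adjusted p 9.73e-05 and 0.000104).

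Against 4.53% of all genes, 1 of the 26 tested amino acid carriers was muscle-enriched. This was SLC7A8, a light chain that exchanges neutral amino acids, which had 12.1 and 20.2 CPM in Korean native and Berkshire liver, against 89.1 and 69.3 CPM in Korean native and Berkshire muscle and 1.28 and 0.977 CPM in Korean native and Berkshire fat. Muscle was above liver and liver above fat, with log2 differences of -2.31 ± 0.38 for liver minus muscle (edgeR adjusted p 0.00382) and 3.81 ± 0.45 for liver minus fat (adjusted p 0.00119). SLC3A2, the heavy chain that brings such light chains to the cell surface, had 17.4 and 32.9 CPM in Korean native and Berkshire liver, 87.5 and 63.6 CPM in Korean native and Berkshire muscle, and 23.9 and 45.2 CPM in Korean native and Berkshire fat. Its liver minus muscle log2 difference was -1.69 ± 0.43 (adjusted p 0.021). The call ended without Korean native liver, at -1.34, and without Korean native muscle, at -0.96. SLC7A7, an exchanger of cationic for neutral amino acids that pairs with the same heavy chain, lay between 97.7 and 186 CPM in all 6 libraries and passed in no tissue contrast.

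Of the 26 tested amino acid carriers 3 were fat-enriched and 6 liver-enriched, where all genes gave 1.56% and 8.11%. The fat-enriched members were SLC1A5, SLC1A3 and SLC36A2. SLC1A5, which exchanges glutamine and other neutral amino acids, had 6.61 and 12.2 CPM in Korean native and Berkshire liver, 19.8 and 44.4 CPM in Korean native and Berkshire muscle, and 222 and 223 CPM in Korean native and Berkshire fat. Both fat libraries were above all others, with log2 differences of -4.66 ± 0.43 for liver minus fat (edgeR adjusted p 0.000409) and -2.92 ± 0.39 for muscle minus fat (adjusted p 0.00414). Its liver minus muscle difference of -1.74 ± 0.39 lost its call without Berkshire muscle, at -1.30, or without Korean native liver, at -1.61. SLC1A3, a glutamate carrier best known from glia, had 0 and 0.399 CPM in Korean native and Berkshire liver, 8.06 and 21.8 CPM in Korean native and Berkshire muscle, and 44.7 and 69.7 CPM in Korean native and Berkshire fat. The fat level was 316-fold above the 2 counts of liver (95% counting interval 87.4 to 2615, edgeR adjusted p 0.000225). Its muscle minus fat log2 difference of -2.06 ± 0.40 (adjusted p 0.0173) lost its call when Korean native fat (-1.62) or muscle (-1.74) was left out, and without the breed term (-1.93).

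SLC36A2, a proton-coupled carrier of small amino acids, had 0 CPM in both liver libraries, 0.461 and 0.366 CPM in Korean native and Berkshire muscle, and 8.36 and 2.93 CPM in Korean native and Berkshire fat. It was at least 10.3-fold higher in fat than in liver (edgeR adjusted p 0.00369). The muscle minus fat log2 difference of -3.60 ± 0.69 (adjusted p 0.0219) lost its call when Berkshire fat (-4.13), Korean native fat (-2.92) or Korean native muscle (-2.95) was left out. SLC7A10, an exchanger of small neutral amino acids named after its values were seen, had 0 CPM in liver, 3.22 and 4.2 CPM in Korean native and Berkshire muscle and 19.6 and 9.87 CPM in Korean native and Berkshire fat. It was at least 26.9-fold higher in fat than in liver (adjusted p 0.00148), and its muscle minus fat difference did not pass (-1.89 ± 0.49, adjusted p 0.0511). That difference passed in DESeq2 (-1.93) and limma-voom (-1.86).

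Carriers of bile acids and organic ions included several members that were close to absent outside liver. Of 33 members 17 were tested, 7 were higher and 3 lower in liver than in muscle, and 7 were higher and 5 lower in liver than in fat. The shares over all genes were 18.6% higher and 17.4% lower against muscle, and 15.2% higher and 13.5% lower against fat. With total counts the liver minus fat split was 7 and 7. SLC10A1, the sodium-coupled bile acid carrier of the hepatocyte surface, had 589 and 342 CPM in Korean native and Berkshire liver, 0.691 and 0 CPM in Korean native and Berkshire muscle and 0 CPM in both fat libraries. It was at least 1584-fold higher in liver than in fat (edgeR adjusted p 0.000209), and 1561-fold higher than the 3 counts of muscle (95% counting interval 534 to 7574, adjusted p 0.000228).

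SLC22A7, an organic anion carrier, had 239 and 125 CPM in Korean native and Berkshire liver, with 1 count over both muscle libraries and 1 count over both fat libraries. The liver level was 1841-fold that of muscle (95% counting interval 330 to 72736) and 3826-fold that of fat (interval 686 to 151211), with edgeR adjusted p 1e-04 and 0.000107. SLCO1A2, an organic anion polypeptide, had 147 and 212 CPM in Korean native and Berkshire liver and at most 0.731 CPM elsewhere, with a log2 difference of 8.80 ± 0.66 for liver minus muscle (adjusted p 0.000138). SLCO2B1, another of that branch, had 277 and 225 CPM in Korean native and Berkshire liver, 8.06 and 4.94 CPM in Korean native and Berkshire muscle, and 22.6 and 8.89 CPM in Korean native and Berkshire fat. It had a measurable level in every tissue, with a liver minus fat log2 difference of 4.12 ± 0.39 (adjusted p 0.000474).

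Of the 17 tested carriers of bile acids and organic ions, 2 were muscle-enriched, where all genes gave 4.53%. Of these 1 was in the SLC22 family and 1 in the SLCO branch. SLC22A16, a carnitine carrier, had 0.165 and 0 CPM in Korean native and Berkshire liver, 25.3 and 23.6 CPM in Korean native and Berkshire muscle, and 2.46 and 2.74 CPM in Korean native and Berkshire fat. Muscle was above fat by 3.22 ± 0.41 on the log2 scale (edgeR adjusted p 0.00322), and 269-fold above the 1 count of liver (95% counting interval 47.9 to 10681). SLCO3A1 was not the muscle-enriched SLCO member, since its muscle and fat libraries overlapped. It was lower in liver than in either other tissue, with 2.81 and 2.40 CPM in Korean native and Berkshire liver, 15.4 and 12.8 CPM in Korean native and Berkshire muscle, and 21.2 and 8.70 CPM in Korean native and Berkshire fat (log2 -2.45 ± 0.44 against muscle and -2.43 ± 0.43 against fat, adjusted p 0.00534 and 0.00654). SLC22A3, an organic cation carrier, had at most 6.76 CPM in liver and muscle, and 19.5 and 8.31 CPM in Korean native and Berkshire fat. Its liver minus fat log2 difference of -3.78 ± 0.86 (adjusted p 0.0165) lost its call without Korean native fat, at -2.43.

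Glucose and other sugar carriers included members high in liver and members at or near 0 counts there. Of 14 members 11 were tested, 5 were higher and 2 lower in liver than in muscle, 2 were higher and 2 lower in liver than in fat, and 0 passed between muscle and fat. Among all genes, 18.6% were higher and 17.4% lower in liver than in muscle. Against fat, 15.2% were higher and 13.5% lower in liver, and 16.4% passed between muscle and fat. With total counts the liver minus fat split was 1 and 4, and without Korean native muscle the liver minus muscle split was 2 and 2. SLC2A2 (GLUT2), the bidirectional glucose carrier of hepatocytes, had 194 and 221 CPM in Korean native and Berkshire liver, 0.230 and 0 CPM in Korean native and Berkshire muscle, and 0 CPM in both fat libraries. It was at least 706-fold higher in liver than in fat (edgeR adjusted p 0.000156), and 2025-fold higher than the 1 count of muscle (95% counting interval 363 to 80027). SLC2A12 (GLUT12) had 0 CPM in liver, 22.8 and 7.68 CPM in Korean native and Berkshire muscle, and 5.51 and 5.18 CPM in Korean native and Berkshire fat, so that it was at least 27.8-fold higher in muscle and at least 9.76-fold higher in fat than in liver (adjusted p 0.00139 and 0.00437).

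SLC2A4 (GLUT4), the insulin-responsive glucose carrier, was named after its values were seen. It had 0.496 and 0 CPM in Korean native and Berkshire liver, 5.99 and 5.48 CPM in Korean native and Berkshire muscle, and 5.41 and 4.69 CPM in Korean native and Berkshire fat. The muscle level was 21.0-fold above the 3 counts of liver (95% counting interval 6.84 to 105) and the fat level 18.6-fold above them (interval 6.19 to 91.7), with edgeR adjusted p 0.00539 and 0.00757. Both muscle libraries were slightly above both fat libraries, and the muscle minus fat difference of 0.19 ± 0.52 did not pass. SLC2A11 and SLC50A1, sugar carriers of lower count, stayed between 2.99 and 14.2 CPM in all libraries and passed in no contrast. SLC37A4, which moves glucose 6-phosphate into the endoplasmic reticulum and was also named after its values were seen, had 149 and 442 CPM in Korean native and Berkshire liver, 211 and 81.2 CPM in Korean native and Berkshire muscle, and 15.8 and 17.8 CPM in Korean native and Berkshire fat. Liver and muscle overlapped, and both were above fat (log2 4.11 ± 0.71 and 3.15 ± 0.69, adjusted p 0.0057 and 0.0249). Between muscle and fat the call ended without Berkshire fat (3.18), Korean native fat (3.11) or Korean native muscle (1.80). A liver minus muscle call appeared without Korean native liver (2.01) or Korean native muscle (2.14).

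The SLC27 proteins activate and take up fatty acids, and their members differed in tissue. All 5 members were tested, with 2 higher and 1 lower in liver than in muscle, a split of 1 and 0 when Korean native liver or muscle was left out. Among all genes, 18.6% were higher and 17.4% lower in liver than in muscle. SLC27A2, an acyl-CoA synthetase for very long fatty acids, had 239 and 158 CPM in Korean native and Berkshire liver, 0 CPM in muscle, and 0.787 and 0.0977 CPM in Korean native and Berkshire fat. It was at least 321-fold higher in liver than in muscle (edgeR adjusted p 0.000204) and differed from fat by 8.86 ± 0.61 on the log2 scale (adjusted p 0.000268). SLC27A1 had 3.47 and 6.59 CPM in Korean native and Berkshire liver, against 23 and 11.3 CPM in Korean native and Berkshire muscle. Its liver minus muscle difference of -1.74 ± 0.51 (adjusted p 0.0346) lost its call without Korean native liver, at -1.03, or Korean native muscle, at -1.06. SLC27A3 lay between 2.80 and 14.8 CPM in all libraries and passed in no contrast.

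SLC27A6, a further member of that family, was higher in fat. It had 3.80 and 9.18 CPM in Korean native and Berkshire liver, 1.38 and 9.87 CPM in Korean native and Berkshire muscle, and 12.7 and 26.3 CPM in Korean native and Berkshire fat. Both fat libraries were above all others (liver minus fat -1.65 ± 0.46, muscle minus fat -2.04 ± 0.47, edgeR adjusted p 0.0337 and 0.0304). Without Korean native fat both calls ended, at -1.22 and -1.67. The first also ended without Berkshire liver (-1.44) or Korean native liver (-1.86), and the second without Korean native muscle (-1.45), while it was -3.24 without Berkshire muscle. Without the breed term both ended as well, at -1.59 and -1.76.

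Carboxylate carriers of the SLC16 and SLC13 families passed in both directions. Of 17 members 12 were tested, with 3 higher and 3 lower in liver than in muscle, 3 higher and 1 lower in liver than in fat, and 2 higher and 1 lower in muscle than in fat. Over all genes the shares were 18.6% higher and 17.4% lower, 15.2% and 13.5%, and 9.95% and 6.43%, in the same order. With total counts the splits against fat turned to 3 and 5 for liver and 2 and 4 for muscle. SLC16A3 (MCT4), the lactate exporter of glycolytic fibres, had 0.165 and 0.399 CPM in Korean native and Berkshire liver, 53 and 14.6 CPM in Korean native and Berkshire muscle, and 1.08 and 0.684 CPM in Korean native and Berkshire fat. Muscle was above fat by 5.07 ± 0.55 on the log2 scale (edgeR adjusted p 0.00158) and 116-fold above the 3 counts of liver (95% counting interval 39.5 to 568). SLC16A10, an aromatic amino acid carrier, had 21.9 and 41.5 CPM in Korean native and Berkshire muscle and at most 2.98 CPM elsewhere, with a muscle minus fat difference of 4.53 ± 0.65 (adjusted p 0.00527).

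SLC16A6 and SLC16A12 marked liver instead. SLC16A6, known in zebrafish as a ketone body carrier of the liver, had 156 and 118 CPM in Korean native and Berkshire liver and at most 0.548 CPM elsewhere, with a liver minus muscle difference of 7.99 ± 0.48 (edgeR adjusted p 8.09e-05). SLC16A12, a creatine carrier, had 153 and 151 CPM in Korean native and Berkshire liver, 5.07 and 17.4 CPM in Korean native and Berkshire muscle, and 5.31 and 6.94 CPM in Korean native and Berkshire fat (liver minus muscle 3.91 ± 0.49, adjusted p 0.00114). SLC16A14, whose substrates are less well described, was enriched in fat at low counts, with at most 0.366 CPM in liver and muscle, and 4.82 and 3.22 CPM in Korean native and Berkshire fat. Fat was 22.2-fold above the 2 counts of liver (95% counting interval 5.96 to 187) and 19.7-fold above the 2 counts of muscle (interval 5.29 to 166). This liver minus fat call (-4.34 ± 0.89, adjusted p 0.0111) ended when Korean native fat (-3.39) or liver (-4.10) was left out. Its muscle minus fat call (-4.17 ± 0.90, adjusted p 0.0238) ended when Korean native fat (-3.42) or muscle (-3.12) was left out.

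SLC13A5, the citrate importer of hepatocytes, was liver-enriched, with 1 liver library far above the other. It had 3.31 and 110 CPM in Korean native and Berkshire liver, 0.691 and 0.914 CPM in Korean native and Berkshire muscle, and 0.197 and 0.195 CPM in Korean native and Berkshire fat. Its liver minus muscle log2 difference was 5.60 ± 1.12 (edgeR adjusted p 0.00829). It was 2.13 without Berkshire liver and 2.53 without Berkshire muscle, and neither passed. Its liver minus fat difference of 7.51 ± 1.19 (adjusted p 0.00398) was 4.08 without Berkshire liver and 4.44 without Berkshire fat, and both passed.

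Creatine and osmolyte carriers of the SLC6 family included 1 liver-enriched and 1 muscle-enriched member. Of 15 members only 5 were tested, and 3 of these passed in neither direction between liver and muscle. Over all genes tested 8.11% were liver-enriched and 4.53% muscle-enriched. SLC6A8, the creatine carrier, had 7.11 and 32.1 CPM in Korean native and Berkshire liver, 186 and 106 CPM in Korean native and Berkshire muscle, and 26.9 and 22.1 CPM in Korean native and Berkshire fat. Muscle was above both, with log2 differences of -3.01 ± 0.71 for liver minus muscle (edgeR adjusted p 0.0162) and 2.59 ± 0.67 for muscle minus fat (adjusted p 0.041). The first was -1.86 without Korean native liver and -4.58 without Berkshire liver. The second lost its call without Berkshire fat (2.26), Korean native fat (3.12) or Korean native muscle (1.60), and with total counts (1.63).

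SLC6A12, the betaine and GABA carrier, had 79.5 and 180 CPM in Korean native and Berkshire liver, with 0.230 and 0.183 CPM in Korean native and Berkshire muscle and 0.295 and 0.586 CPM in Korean native and Berkshire fat. Liver was 614-fold above the 2 counts of muscle (95% counting interval 170 to 5076, edgeR adjusted p 7.53e-05) and above fat by 8.12 ± 0.44 on the log2 scale. SLC6A6, the taurine carrier, stayed at or under 2.95 CPM in all libraries and had 0 counts in muscle, at least 3.80-fold below fat (adjusted p 0.0223). That call ended without Berkshire fat, Korean native fat or Korean native muscle, at fitted adjusted p 0.0677, 0.144 and 0.103. SLC6A4, the serotonin carrier, lay between 0.998 and 9.84 CPM and passed in no contrast.

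Carriers of acid, base and salt that passed were mostly lower in liver than in muscle. Of 44 members 25 were tested, with 1 higher and 10 lower in liver than in muscle, 2 higher and 6 lower in liver than in fat, and 7 higher and 1 lower in muscle than in fat. Over all genes the shares were 18.6% higher and 17.4% lower, 15.2% and 13.5%, and 9.95% and 6.43%, in the same order. The liver minus muscle split was the same 1 and 10 with total counts, whereas liver minus fat turned to 1 higher and 15 lower and muscle minus fat to 4 higher and 8 lower. The liver minus fat split was 1 and 2 without Korean native fat, 1 and 3 without Berkshire fat, and 2 and 3 without either liver library. For muscle minus fat it was 4 and 1 without Berkshire fat. SLC12A2 (NKCC1), the sodium, potassium and chloride cotransporter, had 3.31 and 4.79 CPM in Korean native and Berkshire liver, 186 and 135 CPM in Korean native and Berkshire muscle, and 17.3 and 14 CPM in Korean native and Berkshire fat. No tissues overlapped, and the log2 difference was -5.29 ± 0.41 for liver minus muscle (edgeR adjusted p 0.000151) and 3.35 ± 0.36 for muscle minus fat (adjusted p 0.00149). Its liver minus fat difference of -1.94 ± 0.38 (adjusted p 0.00892) lost its call when Korean native fat (-1.82) or liver (-1.50) was left out.

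SLC8A3, a sodium and calcium exchanger of excitable cells, had 0 CPM in liver, 45.8 and 50.5 CPM in Korean native and Berkshire muscle, and 0.0984 and 0.0977 CPM in Korean native and Berkshire fat. It was at least 87.9-fold higher in muscle than in liver (edgeR adjusted p 0.000166) and 494-fold above the 2 counts of fat (95% counting interval 136 to 4089). SLC9A2, a sodium and proton exchanger, had 49.7 and 33.8 CPM in Korean native and Berkshire muscle and at most 0.787 CPM elsewhere, with a muscle minus fat difference of 5.88 ± 0.40 (adjusted p 0.000258). SLC24A3, a potassium-dependent sodium and calcium exchanger, was the fat-enriched member of the group. It had at most 3.47 CPM in liver and muscle, against 14.2 and 17.2 CPM in Korean native and Berkshire fat (liver minus fat -3.21 ± 0.47, muscle minus fat -2.84 ± 0.46, adjusted p 0.00289 and 0.00914).

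Members of the sodium bicarbonate family SLC4 were also named. SLC4A4 had 72.4 and 128 CPM in Korean native and Berkshire liver, 81.1 and 23.6 CPM in Korean native and Berkshire muscle, and 30.6 and 21.1 CPM in Korean native and Berkshire fat. The liver minus fat difference of 2.06 ± 0.58 (edgeR adjusted p 0.0368) lost its call without Berkshire liver (0.91), Berkshire fat (2.01) or Korean native fat (2.09), and with total counts (1.02). SLC4A7 had 11.2 and 13.2 CPM in Korean native and Berkshire liver, against 24.6 and 88.5 CPM in Korean native and Berkshire muscle, a liver minus muscle difference of -1.99 ± 0.45 (adjusted p 0.0132). It was -1.25 and still called without Berkshire muscle, and -1.47 and not called without Berkshire liver. SLC12A4, a potassium and chloride cotransporter, had 18.2 to 33.1 CPM in the liver and muscle libraries, against 55.9 and 59.2 CPM in Korean native and Berkshire fat. The liver minus fat difference of -1.54 ± 0.34 (adjusted p 0.0145) lost its call without Berkshire liver (-1.27) or Korean native fat (-1.46). SLC4A1AP, the adaptor, stayed between 35.2 and 45.6 CPM in all libraries.

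Nucleoside carriers showed 1 muscle-enriched member among 2 tested, where all genes gave 4.53%. SLC29A2 had 0 and 0.200 CPM in Korean native and Berkshire liver, 50.2 and 5.85 CPM in Korean native and Berkshire muscle, and 1.38 and 1.56 CPM in Korean native and Berkshire fat. The muscle level was 282-fold above the 1 count of liver (95% counting interval 50.1 to 11170, edgeR adjusted p 0.00391). The muscle minus fat log2 difference of 3.68 ± 0.85 (adjusted p 0.0304) lost its call when Korean native muscle (1.79) or fat (2.04) was left out. SLC29A1, the more broadly expressed of these carriers, had between 24.9 and 121 CPM in all libraries and passed in no tissue contrast.

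Mitochondrial carriers of the SLC25 family were more often higher than lower in liver against muscle. Of 32 members 29 were tested, with 13 higher and 4 lower in liver than in muscle, 7 higher and 2 lower in liver than in fat, and 2 higher and 6 lower in muscle than in fat. All genes gave 18.6% higher and 17.4% lower, 15.2% and 13.5%, and 9.95% and 6.43%, in the same order. The liver minus muscle split of the members was 13 and 4 with total counts too, whereas liver minus fat turned to 4 and 12 and muscle minus fat to 2 and 14. The muscle minus fat split was 2 and 1 without Berkshire fat or without Korean native muscle, and 2 and 3 without Korean native fat. SLC25A13 and SLC25A12 are the paired aspartate and glutamate carriers of the malate-aspartate shuttle, and they were highest in different tissues. SLC25A13 had 83.8 and 38.1 CPM in Korean native and Berkshire liver, 4.38 and 2.92 CPM in Korean native and Berkshire muscle, and 14 and 8.89 CPM in Korean native and Berkshire fat. Its log2 difference was 3.99 ± 0.36 for liver minus muscle (edgeR adjusted p 0.000289) and 2.35 ± 0.32 for liver minus fat (adjusted p 0.00212). Its muscle minus fat difference of -1.64 ± 0.35 lost its call when either fat library or Korean native muscle was left out (-1.77 to -1.47), and without the breed term (-1.66).

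SLC25A12 had 5.46 and 4.59 CPM in Korean native and Berkshire liver, 126 and 69.1 CPM in Korean native and Berkshire muscle, and 10.7 and 6.06 CPM in Korean native and Berkshire fat. Muscle was above both, with log2 differences of -4.22 ± 0.36 for liver minus muscle (edgeR adjusted p 0.000219) and 3.53 ± 0.34 for muscle minus fat (adjusted p 0.000907). SLC25A4, the ADP and ATP exchanger of muscle and heart, had 217 and 157 CPM in Korean native and Berkshire liver, 1023 and 481 CPM in Korean native and Berkshire muscle, and 31.2 and 64.6 CPM in Korean native and Berkshire fat. No tissues overlapped, and the muscle minus fat difference was 3.90 ± 0.59 (adjusted p 0.00687). The call between liver and muscle (-1.99 ± 0.54, adjusted p 0.026) ended without Berkshire liver (-1.81) or Korean native muscle (-1.20). The call between liver and fat (1.91 ± 0.54, adjusted p 0.0372) ended without Korean native fat (1.13) or Korean native liver (1.72) and with total counts (0.92), and the difference was 2.96 without Berkshire fat.

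SLC25A3, the mitochondrial phosphate carrier, had 116 and 103 CPM in Korean native and Berkshire liver, 503 and 269 CPM in Korean native and Berkshire muscle, and 180 and 171 CPM in Korean native and Berkshire fat. The liver minus muscle difference of -1.77 ± 0.36 (edgeR adjusted p 0.00907) lost its call without Korean native liver, at -1.61. SLC25A1, which exports citrate for fatty acid synthesis, had 111 and 79.7 CPM in Korean native and Berkshire liver, 22.8 and 19.6 CPM in Korean native and Berkshire muscle, and 193 and 189 CPM in Korean native and Berkshire fat. Fat was above liver and liver above muscle, with a muscle minus fat difference of -3.18 ± 0.33 (adjusted p 0.00125) and a liver minus muscle difference of 2.16 ± 0.32 (adjusted p 0.00219). The liver minus fat call (-1.02 ± 0.30, adjusted p 0.042) ended when either liver or either fat library was left out (-1.20 to -0.84).

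The other liver-enriched carriers of the family were SLC25A27, SLC25A15 and SLC25A47. SLC25A27, of the uncoupling protein branch, had 230 and 167 CPM in Korean native and Berkshire liver against 13.1 to 30.7 CPM in the other 4 libraries (liver minus fat 3.49 ± 0.47, edgeR adjusted p 0.00211). SLC25A15, the ornithine carrier of the urea cycle and named after its values were seen, had 118 and 191 CPM in Korean native and Berkshire liver against 3.47 to 7.28 CPM elsewhere. It differed by 5.21 ± 0.53 from muscle (adjusted p 0.000425). SLC25A47, a carrier known mainly from liver, had 16.5 and 203 CPM in Korean native and Berkshire liver and at most 0.921 CPM elsewhere, a liver minus muscle difference of 6.59 ± 0.96 (adjusted p 0.00218). SLC25A40 lay between 13.1 and 32.4 CPM in all libraries and passed in no contrast.

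**Figure D2:**
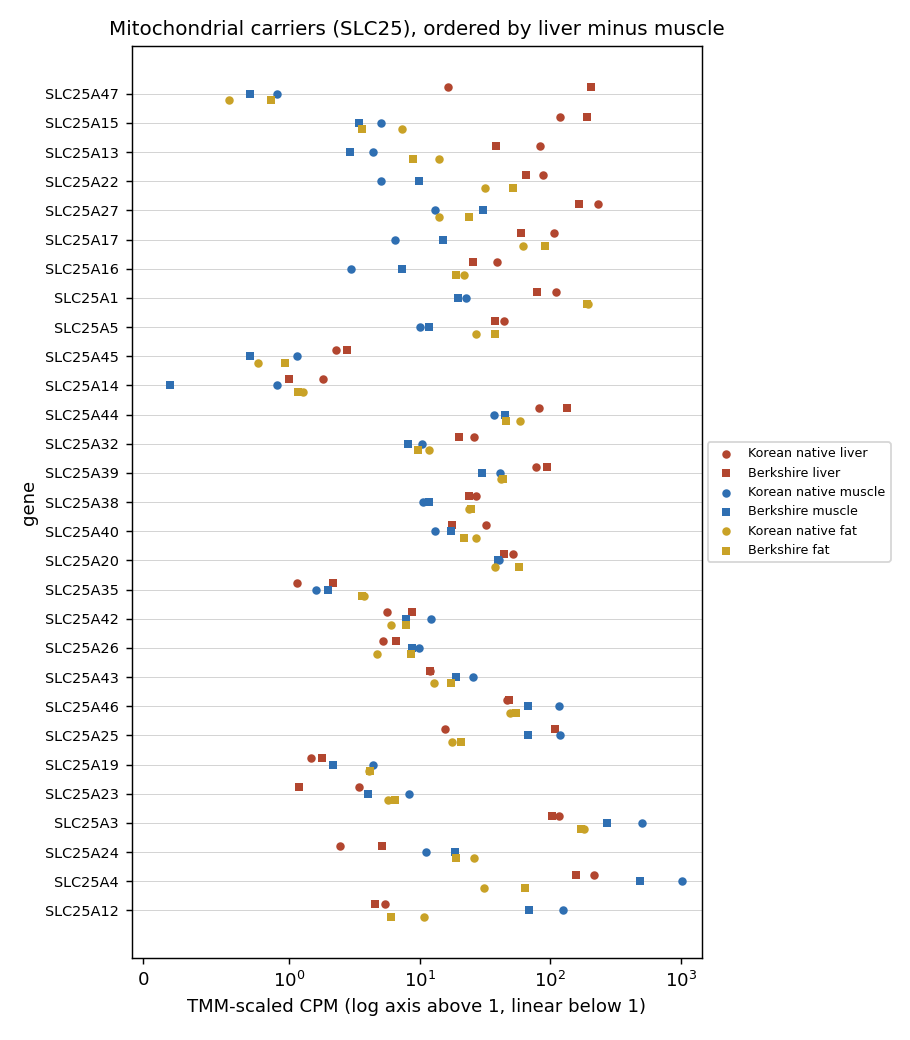
TMM-scaled CPM of the 29 tested SLC25 genes in each library, ordered from highest to lowest liver minus muscle difference, with red-brown for liver, blue for muscle and yellow for fat, circles for Korean native and squares for Berkshire. SLC25A13 and SLC25A12 stand near opposite ends, with 83.8 and 38.1 CPM in liver for the first and 126 and 69.1 CPM in muscle for the second.

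Metal carriers were spread over all tissues, with some liver-enriched members. Of 24 members 18 were tested, with 7 higher and 4 lower in liver than in muscle and 4 higher and 4 lower in liver than in fat. For all genes these shares were 18.6% and 17.4%, and 15.2% and 13.5%. With total counts the liver minus fat split of the members was 1 and 7. The liver minus fat split was 2 and 1 without Berkshire fat and 3 and 2 without either liver library, and the liver minus muscle split was 5 and 2 without Berkshire liver. SLC39A9, a zinc importer, had 77.6 and 103 CPM in Korean native and Berkshire liver, 21.4 and 29.4 CPM in Korean native and Berkshire muscle, and 50.2 and 44 CPM in Korean native and Berkshire fat (liver minus muscle 1.83 ± 0.32, edgeR adjusted p 0.00484). SLC39A1, another zinc importer, and SLC30A9, a zinc carrier of mitochondria, lay between 29.5 and 55.7 CPM in all libraries and passed in no contrast. The magnesium carriers differed in tissue. SLC41A2 had 105 and 87.6 CPM in Korean native and Berkshire liver, 2.07 and 6.03 CPM in Korean native and Berkshire muscle, and 27.9 and 10.4 CPM in Korean native and Berkshire fat. The call between liver and fat (2.38 ± 0.58, adjusted p 0.0214) ended without Berkshire fat (1.62) and with total counts (1.36).

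SLC41A1, the sodium-coupled magnesium exporter, had 3.80 and 10.18 CPM in Korean native and Berkshire liver, 83.4 and 38.8 CPM in Korean native and Berkshire muscle, and 23.8 and 41.9 CPM in Korean native and Berkshire fat. Liver was lowest, at -3.24 ± 0.63 against muscle (edgeR adjusted p 0.0076, and -2.08 without Korean native muscle) and -2.26 ± 0.60 against fat (adjusted p 0.0293). The second call ended without Berkshire fat (-1.77) or Korean native liver (-1.64).

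The families grouped here as vitamin carriers held SLC46A3 and SLC23A1, which were higher in liver. SLC46A3 was placed in this group by its family number alone. Of 9 members in the SLC19, SLC23, SLC46 and SLC52 families 7 were tested, and 2 were higher in liver than in muscle and than in fat, where all genes gave 18.6% and 15.2%. SLC46A3, a lysosomal carrier, had 223 and 255 CPM in Korean native and Berkshire liver, 8.29 and 30.2 CPM in Korean native and Berkshire muscle, and 25.5 and 21.6 CPM in Korean native and Berkshire fat (liver minus muscle 3.76 ± 0.55, edgeR adjusted p 0.00219). SLC23A1, a sodium-coupled vitamin C carrier, had 43.7 and 24.6 CPM in Korean native and Berkshire liver and at most 2.74 CPM elsewhere (liver minus muscle 4.06 ± 0.60, adjusted p 0.00226). The other vitamin C carrier, SLC23A2, and the thiamine carrier SLC19A2 lay between 7.28 and 24.2 CPM in all libraries and passed in no contrast.

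SLC5A6, which takes up biotin and pantothenate with sodium and is counted with the sodium-coupled SLC5 family instead, had 65.5 and 287 CPM in Korean native and Berkshire liver, 16.6 and 20.1 CPM in Korean native and Berkshire muscle, and 65.8 and 114 CPM in Korean native and Berkshire fat. Liver and fat overlapped, and both were above muscle (liver minus muscle 2.97 ± 0.50, muscle minus fat -2.22 ± 0.48, edgeR adjusted p 0.00421 and 0.0248). The muscle minus fat call ended without Berkshire muscle (-1.80), without Korean native fat (-1.96) and without the breed term (-2.29).

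The choline-like carriers of SLC44 included broad and liver-enriched members. Of 5 members 4 were tested. SLC44A3 had 8.43 and 10.18 CPM in Korean native and Berkshire liver against at most 0.394 CPM elsewhere, and liver was 90.5-fold above the 1 count of muscle (95% counting interval 15.9 to 3610, edgeR adjusted p 0.00125). SLC44A5 had 2.98 and 7.79 CPM in Korean native and Berkshire liver against at most 1.83 CPM elsewhere. The call between liver and muscle (2.32 ± 0.61, adjusted p 0.0242) ended when any liver or muscle library was left out (1.96 to 2.97), and without the breed term (2.16). SLC44A2 had 47.6 and 63.5 CPM in Korean native and Berkshire liver, 233 and 209 CPM in Korean native and Berkshire muscle, and 138 and 102 CPM in Korean native and Berkshire fat (liver minus muscle -1.99 ± 0.35, adjusted p 0.00475). The call between liver and fat (-1.10 ± 0.34, adjusted p 0.0497) ended when any liver or fat library was left out (-1.46 to -0.75). SLC44A1, a choline carrier of the plasma membrane and mitochondria, lay between 47.9 and 108 CPM and passed in no tissue contrast.

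None of the 19 tested nucleotide sugar carriers of SLC35 was tissue-enriched. Over all genes 8.11% were enriched in liver, 4.53% in muscle and 1.56% in fat. Of 23 members 19 were tested, with 4 higher and 2 lower in liver than in muscle, 4 higher and 1 lower in liver than in fat, and 1 higher and 1 lower in muscle than in fat. All genes gave 18.6% higher and 17.4% lower, 15.2% and 13.5%, and 9.95% and 6.43%, in the same order. With total counts the member splits against fat were 1 and 8 for liver and 0 and 11 for muscle. Without Korean native muscle the liver minus fat split was 6 and 2. SLC35A1, the carrier of CMP-sialic acid, SLC35A5, SLC35E1 and SLC35F5 lay between 18.2 and 70.4 CPM in all libraries and passed in no contrast. SLC35A5 had 25.1 and 28.6 CPM in Korean native and Berkshire liver, 25.3 and 29.4 CPM in Korean native and Berkshire muscle, and 24.5 and 28.9 CPM in Korean native and Berkshire fat. Its liver minus fat difference was 0.01 ± 0.29 (edgeR adjusted p 0.99). SLC35F2 was lower in liver than in fat, with 0.992 and 1.60 CPM in Korean native and Berkshire liver against 5.80 and 10.16 CPM in Korean native and Berkshire fat (-2.60 ± 0.46, adjusted p 0.00606).

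In all, 121 of the 194 tested members (62.4%) passed in at least 1 tissue contrast, against 46.9% of all genes tested, and 73 members passed in none.

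The comparison of breeds asked which carriers differ between Korean native and Berkshire pigs. No member passed the edgeR test of the breed term over the 3 tissues (0 of 194), where 0.109% of all genes passed, 0.029% higher and 0.0797% lower in Korean native pigs. At an unadjusted p under 0.05 there were 22 members, against 7.99% of all genes, and DESeq2 and limma-voom also called 0 members. The members of smallest p were higher in Korean native pigs for SLC44A1 (log2 0.73 ± 0.25), SLC1A1 (1.11 ± 0.34) and SLC25A13 (0.82 ± 0.27), with edgeR adjusted p 0.52, 0.479 and 0.495. SLC44A1 had 103, 108 and 95.6 CPM in liver, muscle and fat of Korean native pigs, against 61.5, 79.3 and 47.9 CPM in liver, muscle and fat of Berkshire pigs. The value was higher in the Korean native library in 3 of 3 tissues.

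In the other direction were SLC2A8 (-2.03 ± 0.49), SLC27A6 (-1.54 ± 0.39) and SLC46A1 (-2.29 ± 0.61), with edgeR adjusted p 0.383, 0.4 and 0.43. SLC2A8 (GLUT8), an intracellular sugar carrier, had 1.16, 0.461 and 1.28 CPM in liver, muscle and fat of Korean native pigs, against 8.39, 1.65 and 3.42 CPM in liver, muscle and fat of Berkshire pigs. The call between liver and muscle (2.00 ± 0.63, adjusted p 0.0454) ended without Berkshire liver (1.10), Berkshire muscle (1.82) or Korean native muscle (2.08), with total counts (1.86), in DESeq2 (1.96) and without the breed term (2.09). SLC46A1, the proton-coupled folate carrier, had 0.992, 0 and 0.492 CPM in liver, muscle and fat of Korean native pigs, against 3.39, 0.914 and 2.74 CPM in liver, muscle and fat of Berkshire pigs.

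Within a tissue there was 1 library of each breed, so ratios are descriptions without a test, and their intervals cover counting error only. Among members that reached 10 CPM in a library, 8 of 105 were at least 4-fold apart in liver, 1 higher and 7 lower in Korean native liver. Of all genes 2.78% were that far apart, 1.37% higher and 1.41% lower. In muscle 3 of 93 members were, 2 higher and 1 lower in Korean native muscle, where all genes gave 2.81%, 1.16% higher and 1.65% lower. In fat 0 of 94 members were, where all genes gave 1.48%, 0.625% higher and 0.851% lower. Most of these members reached 10 CPM in 1 library of the pair alone. With 10 CPM required in both libraries the 4-fold count was 3 in liver and 1 in muscle, and with a minimum of 1 CPM it was 14 in liver and 7 in muscle. With total counts it was 6 in muscle. At a wider threshold of 2-fold, liver had 23 members, 3 higher and 20 lower in Korean native liver, against 11.2% of all genes, 5.78% higher and 5.47% lower. Muscle had 27, 16 higher and 11 lower in Korean native muscle, against 20.3% of all genes, 11% higher and 9.34% lower. Fat had 8, 6 higher and 2 lower in Korean native fat, against 7.57% of all genes, 4.15% higher and 3.42% lower. The median log2 ratio of members was -0.19 in liver, -0.14 in muscle and 0.05 in fat, against 0.00, 0.08 and 0.02 over all genes.

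The carriers lower in Korean native liver came from several families. SLC13A5 differed most, with 3.31 and 110 CPM in Korean native and Berkshire liver, 30.7-fold lower. SLC25A47, at 16.5 and 203 CPM in Korean native and Berkshire liver, was 12.1-fold lower, and SLC25A25, an ATP-Mg and phosphate carrier, was 6.76-fold lower at 15.7 and 108 CPM in the same libraries. SLC25A25 had 119 and 67.1 CPM in Korean native and Berkshire muscle, so the difference had the other sign there. SLC38A2, an amino acid carrier known to be induced by amino acid shortage, had 9.43 and 55.9 CPM in Korean native and Berkshire liver, 5.78-fold lower. SLC6A8 (7.11 and 32.1 CPM in Korean native and Berkshire liver) was 4.38-fold lower, and SLC5A6 (65.5 and 287 CPM in Korean native and Berkshire liver), named here after its values were seen, was 4.37-fold lower.

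SLC7A9, the cystine and cationic amino acid exchanger, was the 1 member at least 4-fold higher in Korean native liver, with 10.3 CPM against 1.80 CPM in Berkshire liver (5.05-fold). It did not pass the filter on low counts for the tissue test. The next ratios were smaller, from 1.81-fold for SLC25A40 and SLC35A1 to 2.44-fold for SLC1A1 (92.9 and 37.9 CPM in Korean native and Berkshire liver), with SLC25A13 and SLC22A7 between them. Summed erythroid markers were at 2126 and 247 CPM in Korean native and Berkshire liver, and summed macrophage markers at 587 and 849 CPM in Korean native and Berkshire liver, lower in 5 of 5 genes. Summed epithelial and bile duct markers were at 582 and 333 CPM in Korean native and Berkshire liver. Hepatocyte markers were higher in 8 of 12 genes, with sums of 265852 and 230748 CPM in the same libraries. The part of these in the liver ratios was not tested.

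**Figure D3:**
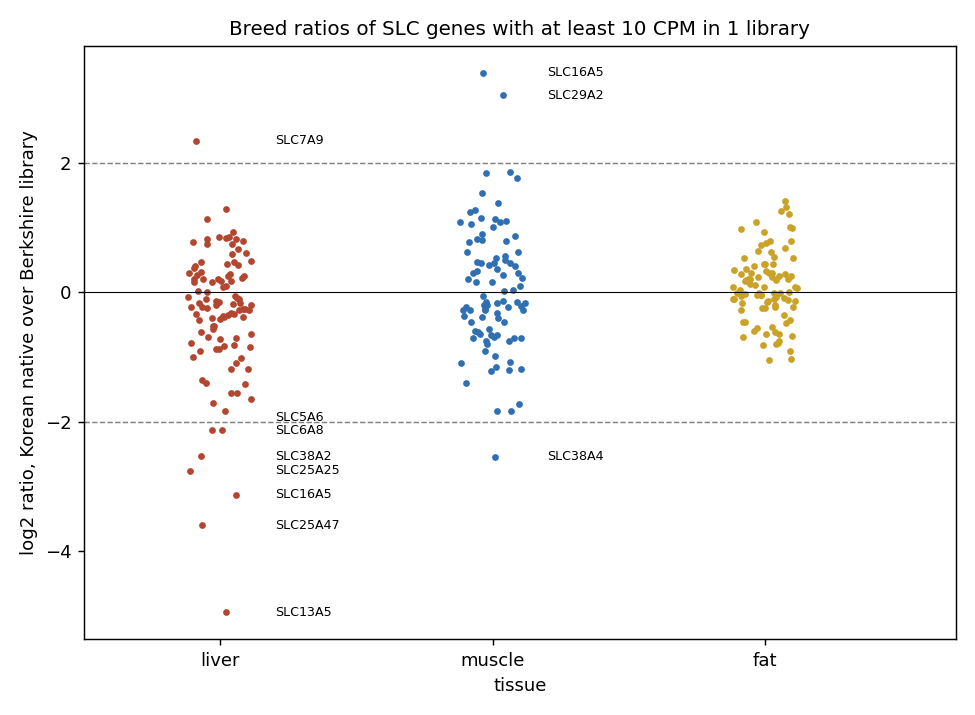
Log2 ratio of Korean native over Berkshire library for each SLC gene that reached 10 CPM in a library of the tissue, with dashed lines at 4-fold and names for genes beyond them (labels are shifted slightly where they would overlap). Of the 8 genes beyond 4-fold in liver 7 lie below 0, muscle has 3 and fat has 0, and SLC16A5 lies at -3.12 in liver and 3.38 in muscle.

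In muscle the ratios were widest for SLC16A5 and SLC29A2, which were higher in the Korean native library. SLC29A2 was 8.22-fold higher, at 50.2 and 5.85 CPM in Korean native and Berkshire muscle (95% counting interval 5.90 to 12.9). SLC7A2, SLC16A3, SLC4A4 and SLC2A12 followed, from 2.90-fold for SLC2A12 to 3.63-fold for SLC7A2. SLC38A4 was 5.82-fold lower, at 31.3 and 184 CPM in Korean native and Berkshire muscle, and SLC4A7, SLC46A3, SLC16A12, SLC1A3 and SLC25A27 were 2.31- to 3.56-fold lower. Of the marker genes, 4 of 5 for adipocytes, 4 of 4 for fibroblasts and 5 of 5 for macrophages were also lower in Korean native muscle. Myofibre markers went the other way, higher in 7 of 8 genes, with sums of 159554 and 101829 CPM in Korean native and Berkshire muscle. PLIN1, the lipid droplet coat protein, had 18.9 and 95.6 CPM in Korean native and Berkshire muscle, and summed fibroblast markers were at 1964 and 6566 CPM in Korean native and Berkshire muscle. Summed macrophage markers were at 46.1 and 127 CPM in Korean native and Berkshire muscle. Summed adipocyte markers, which include GPD1, an enzyme that muscle also expresses, were at 1457 and 768 CPM in Korean native and Berkshire muscle. Their part in the muscle ratios was not tested.

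In fat SLC41A2 had the largest ratio among these members, 2.65-fold, at 27.9 and 10.4 CPM in Korean native and Berkshire fat. SLCO2B1, SLCO3A1, SLC22A3, SLC19A2 and SLC29A1 were 2.01- to 2.50-fold higher in Korean native fat. SLC25A4, at 31.2 and 64.6 CPM in Korean native and Berkshire fat, and SLC27A6, at 12.7 and 26.3 CPM in Korean native and Berkshire fat, were 2.06- and 2.05-fold lower, and SLC3A2, SLC41A1, SLC5A6 and SLC35F2 were 1.71- to 1.88-fold lower. Summed macrophage markers were at 344 and 178 CPM in Korean native and Berkshire fat, higher in 5 of 5 genes. Summed adipocyte markers were at 3515 and 4578 CPM in Korean native and Berkshire fat, lower in 4 of 5 genes. Of these, PLIN1 was at 620 and 1093 CPM in Korean native and Berkshire fat. PLIN4 went the other way, at 1848 and 1424 CPM in the same libraries. Endothelial markers were lower in 5 of 5 genes, with sums of 730 and 993 CPM in Korean native and Berkshire fat. Lymphocyte markers were also lower in Korean native fat in 5 of 5 genes. Summed fibroblast markers were at 6074 and 4130 CPM and summed Schwann cell markers at 50.8 and 5.57 CPM in Korean native and Berkshire fat. Their part in the fat ratios was not tested.

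Among 96 members with at least 5 CPM in a library of each tissue, SLC27A6 alone differed by 2-fold or more with 1 sign throughout liver, muscle and fat. Of all genes 0.546% did, 0.154% higher and 0.392% lower in Korean native pigs. SLC27A6 was 2.31-fold lower in Korean native liver, 6.08-fold lower in Korean native muscle and 2.05-fold lower in Korean native fat.

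SLC16A5 (MCT6), of the monocarboxylate carrier family but shown in frog oocytes to carry drugs such as bumetanide, changed the sign of its breed ratio between tissues. It had 3.64 and 33.9 CPM in Korean native and Berkshire liver, 77.2 and 7.13 CPM in Korean native and Berkshire muscle, and 12.6 and 13.7 CPM in Korean native and Berkshire fat. The Korean native library was 8.71-fold lower in liver, 10.4-fold higher in muscle (95% counting interval 7.75 to 15.5) and 0.922-fold the Berkshire value in fat (interval 0.719 to 1.18). Liver and muscle libraries overlapped, and no tissue contrast passed (liver minus muscle -1.13 ± 1.47, edgeR adjusted p 0.587). The difference of its breed ratios between liver and muscle was not tested, since each rests on 1 library against 1. The other tested SLC16 genes with at least 10 CPM in liver or muscle, SLC16A3, SLC16A6, SLC16A10 and SLC16A12, were each highest in 1 tissue in both breeds.

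**Figure D4:**
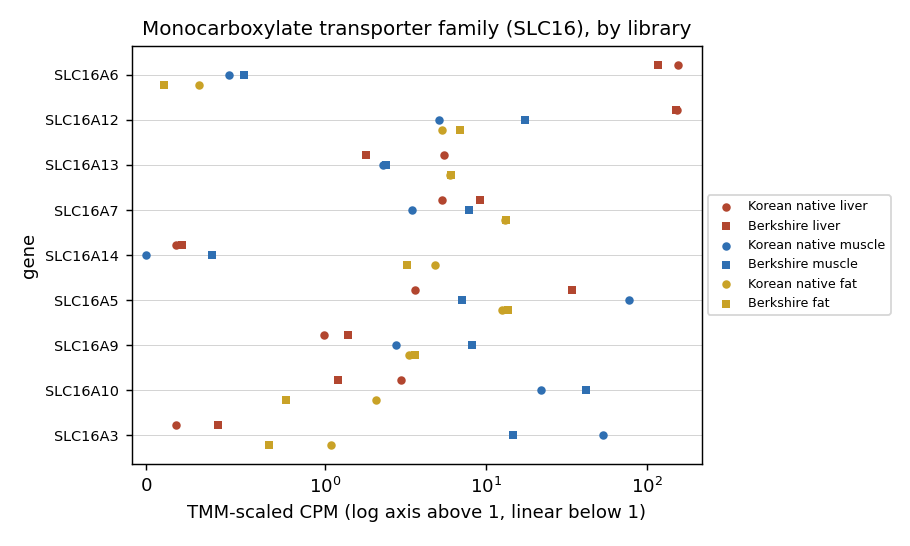
TMM-scaled CPM of the 9 tested SLC16 genes in each library, with red-brown for liver, blue for muscle and yellow for fat, circles for Korean native and squares for Berkshire. SLC16A5 spans 3.64 CPM in Korean native liver to 77.2 CPM in Korean native muscle, with the Berkshire libraries of both tissues in the opposite order (33.9 and 7.13 CPM), while SLC16A6 and SLC16A12 are highest in both liver libraries and SLC16A3 and SLC16A10 in both muscle libraries.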

How the data were processed

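Total RNA of each tissue was made into Illumina TruSeq libraries, per the labels' protocols. Per the submitters' processing notes, TopHat, HTSeq 0.5.3p3 and the Sscrofa10.2 build were used. The values deposited by the authors are raw read counts per Ensembl gene ID, not normalized. No source used here gives the strand setting or annotation release, so overlapping genes on opposite strands may share counts. Closing entries that name no gene entered neither library sizes nor tests. Such entries for reads outside genes held 45.9% to 52.5% of a library, and those for non-unique alignments 14.1% to 20.8%, so genes with near-identical copies may be undercounted.

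Symbols came from a supplied table of gene names (11804 of 25322 IDs matched, 46.6%), which also holds 60 SLC symbols whose IDs are not analysed here. Counts were fitted with edgeR 4.0.16 in R 4.3.3 as tissue plus breed over all 6 libraries, with TMM scaling and filterByExpr, a two-sided quasi-likelihood test and Benjamini-Hochberg adjustment over all 13810 genes tested. The fit has 2 residual degrees of freedom, so p-values measure only the spread among these libraries, which may be technical. Each SE is the log2 difference over the square root of its F statistic. A fold over a tissue with 0 counts was set against 3 counts per library (0.293 to 0.691 CPM) and is a lower bound. Breed ratios within a tissue used a prior count of 2. Intervals are exact 95% binomial (Clopper-Pearson) intervals on the counts and, like the floors, cover counting error only. DESeq2 1.42.0, limma-voom (limma 3.58.1), other scalings and filters and leaving out each library were tried.

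Genes named are SLC16A5, the 10 enriched members of highest mean CPM per tissue, up to 4 members of highest mean CPM per substrate class with at least 4 tested members, the 3 members of smallest breed p in each direction, the 6 largest breed ratios in each direction per tissue, members 2-fold apart in all tissues, and 4 genes of highest mean CPM per further list. The members, classes and lists were chosen with earlier results of these data known.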

Additional observations from a re-analysis of the deposited data

Results flagged for a closer look

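SLC16A5 had breed ratios of opposite sign in liver and muscle. Its log2 ratio of Korean native over Berkshire was -3.12 in liver (3.64 CPM in Korean native and 33.9 CPM in Berkshire liver) and 3.38 in muscle (77.2 CPM in Korean native and 7.13 CPM in Berkshire muscle). The difference between the tissues was not tested, because each ratio compares 1 library with 1 library.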

How the results depend on the processing

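The counts of tissue-enriched liver and muscle members, and the liver minus muscle and liver minus fat counts, stayed within 1.5 times under every scaling, filter and tool tried. With total counts, muscle minus fat had 100 called members and fat 18 enriched members. With a log2 threshold of 1, fat had 9 enriched members. At least 4-fold breed ratios numbered 14 in liver and 7 in muscle with 1 CPM as the minimum, 3 and 1 with 10 CPM in both libraries, and 6 in muscle with total counts. A 2-fold threshold gave 23 members for liver, 27 for muscle and 8 for fat. Members with a shared sign in the 3 tissues numbered 2 with 1 CPM as the minimum and 0 with 10 CPM in both libraries. The cause of these shifts was not tested. Leaving out 1 library at a time, which assumes that the lone sample of its tissue varies like the other tissues, gave 20 to 52 called members for muscle minus fat, 82 to 110 for liver minus muscle, 63 to 95 for liver minus fat, 0 for breed, and 30 to 36, 8 to 13 and 2 to 9 enriched members in liver, muscle and fat. No direction of a named call reversed. Of 112 tissue calls of named genes, those that ended numbered 0 with DESeq2 size factors, limma-voom or no filter, 2 with DESeq2, 5 with total counts, 8 without the breed term and 6 to 19 when 1 library was left out. No paired analysis was possible because the labels carry no replicate numbers, and the breed term already groups the libraries of a breed. A depth of 5897407 to 7912093 counts limits genes under 1 CPM, and 1 library per breed and tissue limits every breed ratio.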

Other observations

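Partners of the carriers and transporters outside the SLC symbols were also measured. Of 21 listed carriers known under other symbols 17 matched an ID and 15 were tested. UCP3, a mitochondrial carrier of the uncoupling branch, had 0.165 and 0.200 CPM in Korean native and Berkshire liver and 48.1 and 111 CPM in Korean native and Berkshire muscle, against 95.2 and 63.1 CPM in Korean native and Berkshire fat. MPC2, a subunit of the mitochondrial pyruvate carrier, had 67.6 and 58.3 CPM in Korean native and Berkshire liver, against 202 and 226.9 CPM in Korean native and Berkshire fat (liver minus fat -1.79 ± 0.35, edgeR adjusted p 0.00898). Of 16 listed accessory proteins 10 matched and were tested. ATP1B4, a muscle protein related to sodium pump beta subunits, had 262 and 846 CPM in Korean native and Berkshire muscle and was enriched there. PDZK1, a scaffold of surface carriers named after its values were seen, had 123 and 71.7 CPM in Korean native and Berkshire liver and was enriched in liver.

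Of 32 listed ABC transporters 24 matched, and 6 were enriched in liver, 1 in muscle and 1 in fat. The shares over all genes tested were 8.11% in liver, 4.53% in muscle and 1.56% in fat. The bile salt exporter ABCB11, which works downstream of SLC10A1, had 729 and 356 CPM in Korean native and Berkshire liver and at most 0.461 CPM elsewhere. ABCC2, the canalicular exporter of conjugates, had 414 and 182 CPM in Korean native and Berkshire liver and at most 0.183 CPM elsewhere. AQP9, a glycerol and water channel, had 608 and 1258 CPM in Korean native and Berkshire liver and at most 6.89 CPM elsewhere.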
